A study of Mus musculus with 8 samples.

Results

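Inflammatory macrophages limit their own cytokine output through decay of cytokine transcripts and through ubiquitin-dependent control of NFκB signaling, and 9 genes of these controls were followed here: Zfp36, Zfp36l1, Zfp36l2, Zc3h12a, Zc3h12c, Elavl1, Tnip1, Tnip3 and Cyld. They were chosen by name, 9 of the 55801 genes in the expression table, each matched a single row, and all 9 were among the 12189 genes with a mean level of at least 1 TPM (a transcript level scaled for transcript length and for the total of the sample) that were tested. The samples were peritoneal macrophages of male C57BL/6 mice aged 6 to 8 weeks, which thioglycollate had drawn into the abdominal cavity, with no genetic change in any group. All cells were cultured, and the 4 groups had 2 samples each: vehicle (DMSO, called NC), LPS at 100 ng/ml for 4 h, the compound C498 at 15 µM, and C498 at 15 µM given 0.5 h before LPS at 100 ng/ml for 4 h (C498+LPS). LPS, from the outer membrane of Gram-negative bacteria, activates macrophages through Toll-like receptor signaling. No source used here says whether the paired samples of a group came from separate mice or cultures, so the p-values measure the spread between these samples, which may be technical.

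The ZFP36 proteins (tristetraprolin, encoded by Zfp36, and its relatives encoded by Zfp36l1 and Zfp36l2) bind AU-rich elements in the 3′ untranslated region of cytokine transcripts and bring in the deadenylation machinery, which shortens the life of the transcript. Zc3h12a encodes the endonuclease Regnase, which cuts stem-loops in the same class of transcripts, Zc3h12c encodes a related protein, and Elavl1 encodes HuR, which binds AU-rich elements and is known to stabilize transcripts. Tnip1 and Tnip3 encode ubiquitin-binding partners of the ubiquitin-editing enzyme A20 (gene Tnfaip3), and Cyld encodes a deubiquitinase that removes ubiquitin chains from NFκB signaling proteins.

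AU-rich elements are built around the heptamer TATTTAT, and windows of 21 bases around it are shown for members and for transcripts they are known to act on, because transcripts of the decay factors hold matches to it too. The windows come from the GENCODE M21 transcripts on GRCm38, run 5′ to 3′ on the transcript strand, and have the heptamers in capitals (overlapping copies run together).
Zfp36 3′ UTR, chr7:28376970-28376990, minus strand: ggcccttTATTTATgacgact
Zfp36l1 3′ UTR, chr12:80108171-80108191, minus strand: gttggatTATTTATtttagaa
Zfp36l2 3′ UTR, chr17:84184918-84184938, minus strand: tttaactTATTTATtatcttg
Elavl1 3′ UTR, chr8:4285750-4285770, minus strand: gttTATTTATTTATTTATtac
Tnf 3′ UTR, chr17:35199682-35199702, minus strand: tatTATTTATTTATTATTTAT
Cxcl2 3′ UTR, chr5:90905340-90905360, plus strand: atgTATTTATTTATTTATtaa
Il6 3′ UTR, chr5:30019732-30019752, plus strand: tgattgaTATTTATtattttt
The 3′ untranslated regions of Zfp36, Zfp36l1 and Zfp36l2 held 3 copies each, and that of Elavl1 held 8 overlapping or neighbouring copies. Zc3h12c and Cyld held 2 copies each and Tnip3 held 1, while no copy was found in Zc3h12a or Tnip1. Among 21037 genes with an annotated 3′ untranslated region, 26.2% held at least 1 copy and 3.76% held 3 or more. Of the 19 listed target transcripts, 17 held at least 1 copy and 11 held 3 or more. These were listed as AU-rich or Regnase targets, so such copies follow in part from how the list was made. Lengths differ, from 752 bases in Tnip1 to 4932 in Cyld, and a match is a description of letters, not a measured binding site.

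Promoters are shown for Zfp36, which rose with C498 and by less with LPS in these data, and for Tnip1 and Tnip3, which rose with LPS. Each runs from 250 bases before to 50 bases after the start in RefSeq (GRCm38.p6), 5′ to 3′ on the gene's strand, and the capitals mark a match to the CArG element in Zfp36 and to the κB element in Tnip1 and Tnip3.
Zfp36 promoter, chr7:28379179-28379478, minus strand: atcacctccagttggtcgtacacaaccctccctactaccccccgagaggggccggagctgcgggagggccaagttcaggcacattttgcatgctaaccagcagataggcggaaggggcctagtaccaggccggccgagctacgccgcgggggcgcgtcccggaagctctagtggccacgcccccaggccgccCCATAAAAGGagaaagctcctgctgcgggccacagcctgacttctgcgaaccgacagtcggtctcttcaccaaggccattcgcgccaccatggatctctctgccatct
Tnip1 promoter, chr11:54962891-54963190, minus strand: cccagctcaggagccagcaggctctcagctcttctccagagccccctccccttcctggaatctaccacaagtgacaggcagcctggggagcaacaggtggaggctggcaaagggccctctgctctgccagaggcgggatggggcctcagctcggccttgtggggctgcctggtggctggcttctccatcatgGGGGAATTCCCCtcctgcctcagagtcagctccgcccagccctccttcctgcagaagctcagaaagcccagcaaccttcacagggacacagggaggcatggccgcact
Tnip3 promoter, chr6:65590148-65590447, plus strand: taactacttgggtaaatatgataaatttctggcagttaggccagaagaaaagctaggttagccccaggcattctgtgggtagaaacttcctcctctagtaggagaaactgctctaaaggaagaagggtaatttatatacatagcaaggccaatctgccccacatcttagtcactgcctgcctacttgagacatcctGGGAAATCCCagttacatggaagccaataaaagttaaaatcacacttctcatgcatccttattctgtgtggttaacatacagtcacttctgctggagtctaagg
The CArG match of Zfp36 began at position -58, and 1.63% of 32851 promoters of this length held a CArG match on either strand. The κB match of Tnip3 began at position -54, and the capitals of Tnip1 are 3 overlapping κB matches that began at positions -58, -57 and -56. A κB match was present in 8.46% of all promoters. Cyld also held a κB match, at position -155, and the 2 promoters listed for Zc3h12c held a κB match at position -236 in the first and the CRE core TGACG at position -133 in the other. Zc3h12a held a CRE core at position 6 after the start (20.8% of all promoters), and Zfp36l1 held the AP-1 element TGANTCA at position -129 (7.81% of all promoters). A κB match did not track the LPS rise: Zc3h12a, which LPS raised most of the members, held none, and Cyld did not pass the test of LPS against NC. None of these 4 motifs was found in the Elavl1 window, and RefSeq sequences matched 8 of the 9 members, without Zfp36l2.

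The libraries resembled each other within groups, with a correlation across the tested genes of 0.962 between the NC samples and 0.970 to 0.981 in the other groups (genes are not independent replicates). Every sample summed to the same total TPM, so the number of reads behind a value is unknown, and between 17528 and 18975 genes were above 0 per sample. All 8 listed macrophage markers were present, and their summed level was 20100 to 20590 TPM in NC, 17940 to 18470 in LPS, 15940 to 16080 in C498 and 12420 to 14210 in C498+LPS. Most of this sum was Lyz2 (15990 and 15980 TPM in NC, 9242 and 7831 TPM in C498+LPS), while Cd14 went the other way, from 235.5 and 252.0 TPM in NC to 1797 and 1794 TPM in C498+LPS. The 5 listed fibroblast markers were all detected as well, and their sum moved with C498, from 150.2 to 192.3 TPM in NC and 175.8 to 200.5 in LPS to 633.1 to 750.0 in C498 and 618.0 to 910.5 in C498+LPS. Mesothelial markers, at a lower level, also moved with C498, from 4.66 to 5.58 TPM in NC and 5.0 to 5.36 in LPS to 14.8 to 20.9 in C498 and 15.5 to 24.5 in C498+LPS. Neutrophil markers, of which 1 of 6 was at 0 in every sample, were lower with C498, at 82.0 to 132.3 TPM in NC and 94.3 to 119.7 in LPS against 52.2 to 55.2 in C498 and 72.0 to 80.8 in C498+LPS. Nearly all of this sum was S100a8 (75.9 and 128.3 TPM in NC, 53.3 and 48.9 in C498), while S100a9 was at 0 in NC and LPS and reached 0.66 TPM in C498 and 0.86 in C498+LPS, and Ly6g was above 0 in 1 sample alone (2.62 TPM, C498). Eosinophil markers, of which 1 of 4 was at 0 in every sample, were also lower, at 1.46 to 2.12 TPM without C498 and 0.6 to 0.92 with it. Mast cell markers summed to 9.07 to 11.2 TPM in NC, 9.08 to 9.25 in LPS, 13.1 to 17.2 in C498 and 8.57 to 22.5 in C498+LPS. B cell markers summed to 3.65 to 4.03 TPM in NC, 4.42 to 4.66 in LPS, 6.02 to 7.52 in C498 and 4.46 to 13.8 in C498+LPS. T cell markers summed to 2.28 to 3.96 TPM in NC, 1.47 to 1.8 in LPS, 1.79 to 2.76 in C498 and 2.19 to 5.23 in C498+LPS. In bulk RNA, fewer cells of a type and less RNA per cell cannot be told apart.

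**Figure D1:**
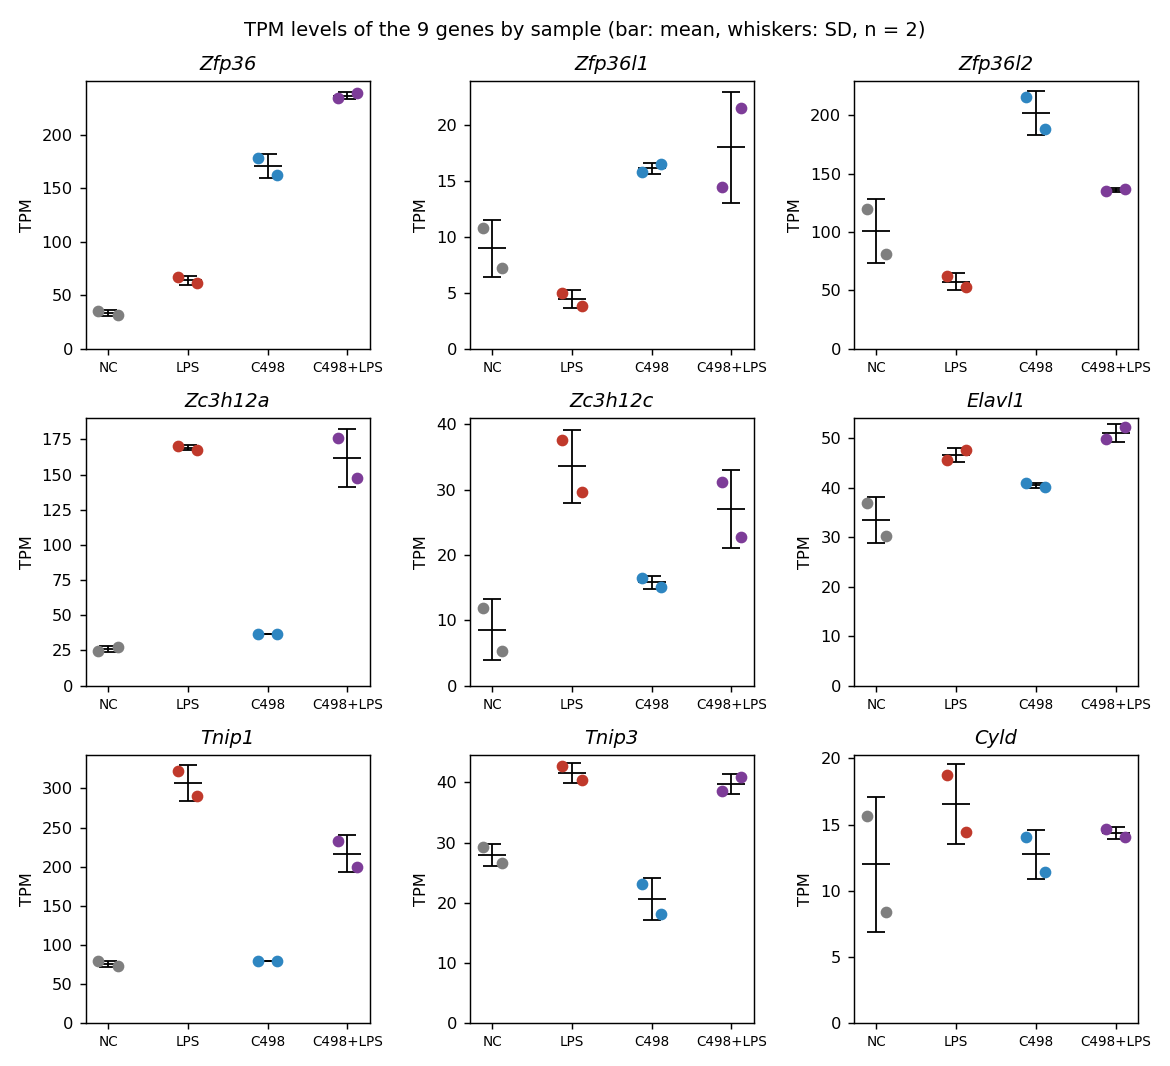
TPM level of each of the 9 genes (vertical axis, linear from 0, own scale per panel) in the NC, LPS, C498 and C498+LPS groups; each point is a sample, the bar is the mean and the whiskers the SD (n = 2). Zfp36 rose from a mean of 33.2 TPM in NC to 236.4 in C498+LPS, Zc3h12a and Tnip1 were high in both LPS groups, and no Cyld sample exceeded 18.7 TPM.

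LPS vs NC asks what macrophages without the compound did. LPS raised the Regnase genes and Tnip1 the most, raised Zfp36, Tnip3 and Elavl1 by less than 2-fold, and lowered Zfp36l1 and Zfp36l2. At an adjusted p of at most 0.05 (limma on log2(TPM + 1), Benjamini-Hochberg over all tested genes), 6 members rose against 9.84% of all tested genes, and 2 fell against 19.8%. LPS vs NC and C498 vs NC share the NC samples, and the other comparisons also share groups, so their counts are not independent. With a fold change of at least 2 added, which defines a differentially expressed gene (DEG), 3 members were upregulated DEGs, Zc3h12a, Zc3h12c and Tnip1, against 5.55% of all tested genes. By samples alone, 6 members lay wholly above NC and 2 wholly below it, against 19.3% and 42.2% of all tested genes. The median log2 change was 0.56 over the 9 members and -0.17 over all tested genes.

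Zc3h12a, the gene of the Regnase endonuclease, measured 24.4 and 27.3 TPM in the NC samples and 170.3 and 167.7 TPM in the LPS samples. The groups lay far apart, and the means differed 6.54-fold (log2 change 2.66, SE 0.115, adjusted p = 1.33e-05 by limma). Zc3h12c measured 11.9 and 5.31 TPM in NC and 37.5 and 29.6 TPM in LPS. The lowest LPS sample was above the highest NC sample, but the NC samples differed from each other by more than a factor of 2. Its log2 change was 1.93 (SE 0.328, adjusted p = 0.00512 by limma), and with only the NC and LPS samples in the fit it missed the threshold (adjusted p = 0.0517).

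Tnip1 and Tnip3, the genes of A20 partners, both held a κB match near the start. Tnip1 measured 78.5 and 72.8 TPM in NC and 322.9 and 290.8 TPM with LPS, a 4.06-fold difference of means without overlap (log2 change 2.00, SE 0.108, adjusted p = 3.43e-05 by limma). Tnip3 rose less, from 29.2 and 26.6 TPM to 42.7 and 40.4 TPM (log2 change 0.56, SE 0.138, adjusted p = 0.0217 by limma), and this pass was lost under 4 of 17 alternatives (adjusted p up to 0.119). Tnfaip3, their enzyme partner, is not a member but rose alongside, from 33.0 and 22.5 TPM to 198.7 and 164.4 TPM (log2 change 2.69, adjusted p = 9.73e-05 by limma). The ratio of Tnip1 to Tnip3 therefore shifted from 2.71 ± 0.038 to 7.38 ± 0.251 (SD, n = 2).

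Within the ZFP36 family the genes moved in opposite directions. Zfp36 measured 35.3 and 31.1 TPM in NC and 66.9 and 61.0 TPM with LPS (log2 change 0.93, SE 0.105, adjusted p = 0.000996 by limma), and it passed 2-fold after centring (1.09) and without the first NC sample (1.01). Zfp36l2, the most abundant member of the 9 in NC, fell from 119.9 and 81.2 TPM to 62.5 and 52.4 TPM (log2 change -0.78, SE 0.185, adjusted p = 0.019 by limma). Zfp36l1 fell from 10.8 and 7.19 TPM to 5.02 and 3.85 TPM (log2 change -0.86, SE 0.251, adjusted p = 0.0387 by limma). The LPS samples of both genes lay below their NC samples, as did those of 42.2% of all tested genes. The fall of Zfp36l1 missed the adjusted p threshold under 8 of 17 alternatives (adjusted p up to 0.192) and that of Zfp36l2 under 4 (up to 0.117). The family sum stayed near its NC level, at 166.0 and 119.5 TPM in NC and 134.4 and 117.2 TPM in LPS, with overlapping samples, while the share of Zfp36 in it went from 23.7 ± 3.37% to 50.9 ± 1.58% (SD, n = 2). Without the second NC sample the number of DEGs among the 9 was 5 rather than 3, because the falls of Zfp36l1 (log2 change -1.13) and Zfp36l2 (-1.06) then passed 2-fold.

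Elavl1, the stabilizing factor, measured 36.8 and 30.1 TPM in NC and 45.6 and 47.6 TPM with LPS (log2 change 0.47, SE 0.12, adjusted p = 0.0242 by limma), and this pass was lost under 5 of 17 alternatives (adjusted p up to 0.124). Cyld measured 15.6 and 8.38 TPM in NC and 18.7 and 14.4 TPM in LPS. The Cyld samples overlapped, and its log2 change of 0.48 had a 95% interval from -0.17 to 1.13 (adjusted p = 0.233 by limma). It passed after centring (adjusted p = 0.0466) and without the first NC sample (0.0227).

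C498 vs NC asks what the compound did without LPS. C498 raised Zfp36 the most of the 9, raised Zfp36l2 and Zc3h12a by less (calls that several alternatives did not keep), and left Tnip1 within 0.31 log2 units of its vehicle level in the 95% interval. Here 3 members rose at an adjusted p of at most 0.05, against 9.29% of all tested genes, and none fell. Of these, 2 were upregulated DEGs, Zfp36 and Zfp36l2, against 5.64% of all tested genes. By samples alone, 7 members lay wholly above NC and 1 wholly below it, against 29.3% and 28.4% of all tested genes. The median log2 change was 0.49 over the 9 members and 0.014 over all tested genes.

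Zfp36 measured 178.3 and 162.2 TPM in the C498 samples against 35.3 and 31.1 TPM in NC. The difference of means was 5.12-fold without overlap (log2 change 2.32, SE 0.105, adjusted p = 4.07e-05 by limma), which placed Zfp36 at rank 101 of 12189 tested genes by log2 change. Zfp36l2 measured 215.4 and 188.7 TPM against 119.9 and 81.2 TPM (log2 change 1.02, SE 0.185, adjusted p = 0.0134 by limma). It was a DEG only narrowly: it lost the call when samples were centred on their median gene (log2 change 0.90), when only the NC and C498 samples were fitted (adjusted p = 0.0829), without the second NC sample (log2 change 0.75), and without the first or the second C498 sample (adjusted p = 0.104 and 0.0689). Zfp36l1 measured 15.8 and 16.5 TPM against 10.8 and 7.19 TPM, above NC in both samples, but its log2 change of 0.80 did not pass (adjusted p = 0.0734 by limma). Without the first NC sample, Zfp36l1 (log2 change 1.07, adjusted p = 0.0327 by limma) and Zc3h12c (1.41, adjusted p = 0.0116) also became DEGs, 4 in all.

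The family sum reached 409.6 and 367.4 TPM with C498, against 166.0 and 119.5 TPM in NC. In the same samples the summed fibroblast, mesothelial, mast cell and B cell markers lay above NC and the macrophage, neutrophil and eosinophil markers below it (values above), and their part in the ZFP36 family result was not tested. Oser1, Hspa5 and Rnf19b were the genes most like Zfp36 over the 8 samples (Pearson r 0.995, 0.994 and 0.993 on the log2 scale, given as a description over samples that share treatments). Hspa5 encodes the main chaperone of the endoplasmic reticulum, and it measured 340.4 ± 40.8 TPM in NC, 479.9 ± 16.6 in LPS, 757.3 ± 49.3 in C498 and 871.0 ± 47.3 in C498+LPS (SD, n = 2). Trim24, Foxo3 and Zmat3 were most like Zfp36l2 (r 0.995, 0.994 and 0.993), and Tle1, Angptl2 and Shb most like Zfp36l1 (r 0.985, 0.981 and 0.979).

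**Figure D2:**
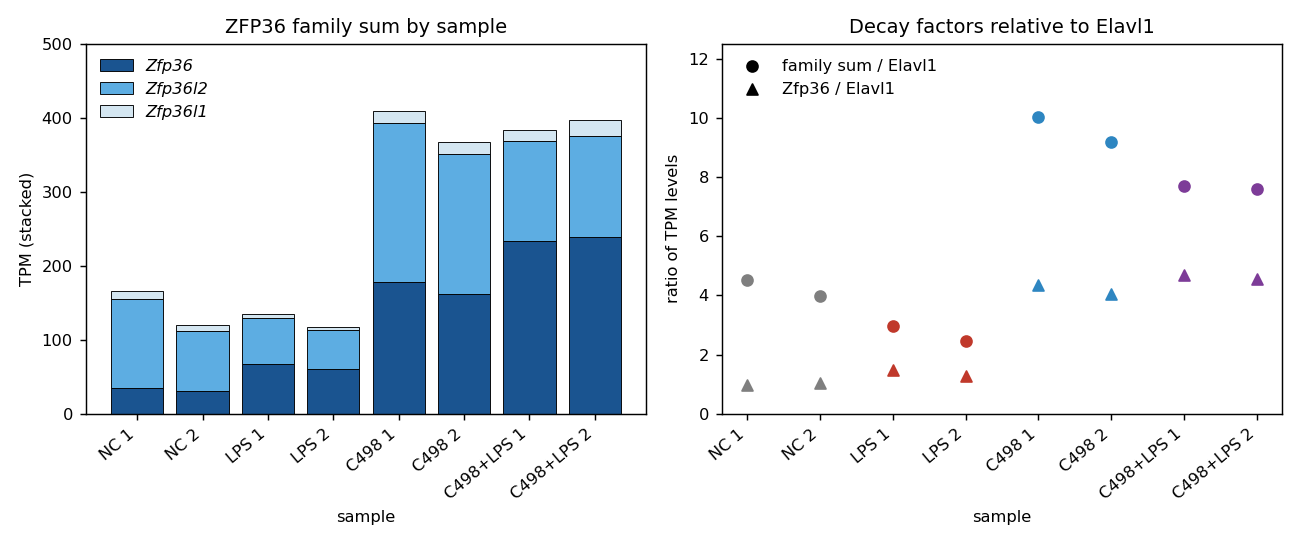
Left, stacked TPM levels of Zfp36, Zfp36l2 and Zfp36l1 in each of the 8 samples; right, the ratio of the family sum (circles) and of Zfp36 (triangles) to Elavl1 in the same samples, coloured by group. The sum lay between 117.2 and 166.0 TPM in the 4 samples without C498 and between 367.4 and 409.6 TPM in the 4 samples with it.

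Of the Regnase and ubiquitin genes, Zc3h12a alone passed the test with C498 in the absence of LPS. It measured 36.8 and 36.5 TPM against 24.4 and 27.3 TPM in NC (log2 change 0.49, SE 0.115, adjusted p = 0.0311 by limma), and this pass was lost under 9 of 17 alternatives (adjusted p up to 0.157). Zc3h12c measured 16.5 and 15.1 TPM against 11.9 and 5.31 TPM (log2 change 0.90, adjusted p = 0.11), and passed with the replicate block (adjusted p = 0.0312). Tnip1 measured 78.8 and 79.1 TPM against 78.5 and 72.8 TPM, a log2 change of 0.06 with a 95% interval from -0.19 to 0.31, whose sign turned to -0.06 after centring. The remaining 3 members did not pass. Tnip3 measured 23.1 and 18.2 TPM, both below the NC samples, and its log2 change of -0.43 (adjusted p = 0.0807 by limma) passed only after centring (adjusted p = 0.0354) and under quantile normalization (0.0416). Elavl1 measured 40.9 and 40.1 TPM (log2 change 0.27, adjusted p = 0.168, and 0.0292 without the first NC sample) and Cyld 14.04 and 11.44 TPM (log2 change 0.13, adjusted p = 0.778). Tnfaip3 differed from its partners here, at 103.0 and 96.4 TPM against 33.0 and 22.5 TPM in NC (log2 change 1.83, adjusted p = 0.00124 by limma), so the ratio of Tnfaip3 to Tnip1 went from 0.365 ± 0.079 in NC to 1.26 ± 0.063 in C498 (SD, n = 2).

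C498+LPS vs LPS asks what the compound changed in cells that also received LPS. All 3 ZFP36 family genes were higher with C498, Tnip1 was lower, and the other 5 members did not pass the test. The 3 that rose at an adjusted p of at most 0.05 compare with 9.08% of all tested genes, and the 1 that fell with 7.7%. The same 3 were the upregulated DEGs, against 5.39% of all tested genes. The median log2 change was -0.06 over the 9 members and 0.0065 over all tested genes.

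Zfp36 measured 234.2 and 238.6 TPM in C498+LPS against 66.9 and 61.0 TPM in LPS, a 3.70-fold difference of means (log2 change 1.87, SE 0.105, adjusted p = 0.000279 by limma). Zfp36l1 measured 14.5 and 21.6 TPM against 5.02 and 3.85 TPM (log2 change 1.79, SE 0.251, adjusted p = 0.00427 by limma). Zfp36l2 measured 135.0 and 137.1 TPM against 62.5 and 52.4 TPM (log2 change 1.24, SE 0.185, adjusted p = 0.0056 by limma). None of the 3 genes had overlapping samples, and 31.9% of all tested genes lay wholly higher in this comparison. The call of Zfp36l2 was lost without the second LPS sample (adjusted p = 0.0543) and without the second C498+LPS sample (0.053). Fibroblast markers (618.0 to 910.5 against 175.8 to 200.5 TPM) and mesothelial markers (15.5 to 24.5 against 5.0 to 5.36 TPM) were also higher in C498+LPS than in LPS, as were the T cell markers (2.19 to 5.23 against 1.47 to 1.8 TPM). Macrophage markers (12420 to 14210 against 17940 to 18470 TPM), neutrophil markers (72.0 to 80.8 against 94.3 to 119.7 TPM) and eosinophil markers (0.6 to 0.92 against 1.46 TPM) were lower, and the part of these lists in the result was not tested.

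Tnip1 measured 233.3 and 199.4 TPM in C498+LPS against 322.9 and 290.8 TPM in LPS, wholly lower, as were 30.9% of all tested genes. Its log2 change was -0.50 (SE 0.108, adjusted p = 0.0203 by limma). This pass was lost under 5 of 17 alternatives: with only the groups compared (adjusted p = 0.0572), without a variance trend (0.0528), without the first (0.134) or second (0.0709) LPS sample and without the second C498+LPS sample (0.12). Mapkapk2, which encodes the kinase MK2 that phosphorylates tristetraprolin, was the gene most like Tnip1 over the 8 samples (r 0.998), followed by Traf1 and Slco3a1 (both 0.998). Zc3h12a measured 176.2 and 147.5 TPM against 170.3 and 167.7 TPM, with overlapping samples and a log2 change of -0.07 whose 95% interval ran from -0.34 to 0.20 and whose sign turned under quantile normalization (0.066). Zc3h12c measured 31.2 and 22.8 TPM against 37.5 and 29.6 TPM (log2 change -0.31, 95% interval -1.08 to 0.46). Tnip3 (38.6 and 40.9 TPM), Elavl1 (49.8 and 52.3 TPM) and Cyld (14.69 and 14.02 TPM) had log2 changes of -0.06, 0.13 and -0.18 and adjusted p of 0.814, 0.526 and 0.714. Il1b, Ifi205 and Il1a were most like Zc3h12a (r 0.998, 0.997 and 0.996), and St3gal1, Cd274 and Met most like Zc3h12c (r 0.998, 0.995 and 0.993). Elavl1, Tnip3 and Cyld spanned less than 1 log2 unit between group means, and no nearest genes were sought for them.

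**Figure D3:**
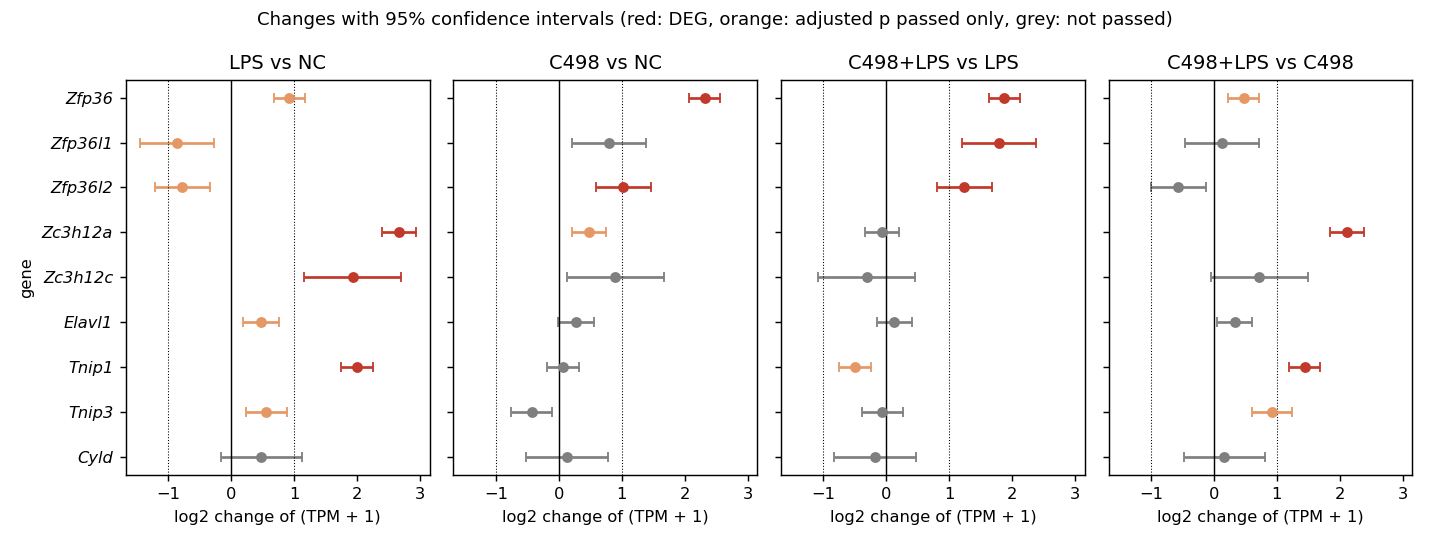
Log2 change of (TPM + 1) of the 9 genes (rows) in 4 comparisons (panels), with 95% confidence intervals from limma; red points are DEGs, orange points passed the adjusted p but not 2-fold, grey points did not pass, and dotted lines mark 2-fold. In LPS vs NC the DEGs are Zc3h12a, Zc3h12c and Tnip1, and in C498+LPS vs LPS they are Zfp36, Zfp36l1 and Zfp36l2.

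C498+LPS vs C498 gives the LPS response of cells that had received the compound. Zc3h12a and Tnip1 were again the upregulated DEGs, 2 members against 2.52% of all tested genes, and 4 members rose at an adjusted p of at most 0.05, against 4.51%. Zc3h12a went from 36.8 and 36.5 TPM to 176.2 and 147.5 TPM (log2 change 2.11, SE 0.115, adjusted p = 9.36e-05 by limma), and Tnip1 from 78.8 and 79.1 TPM to 233.3 and 199.4 TPM (1.44, SE 0.108, adjusted p = 0.000353). Tnip3 rose from 23.1 and 18.2 TPM to 38.6 and 40.9 TPM (log2 change 0.92, SE 0.138, adjusted p = 0.00653 by limma), and it passed 2-fold after centring (1.14), under quantile normalization (1.12) and without the first C498 sample (1.09), while its adjusted p missed the threshold without the second C498 sample (0.0502) and without the second C498+LPS sample (0.0542). Zfp36 rose from 178.3 and 162.2 TPM to 234.2 and 238.6 TPM (log2 change 0.47, SE 0.105, adjusted p = 0.0253 by limma), and this pass was lost without a variance trend (adjusted p = 0.0589) and without any 1 of these 4 samples (0.091 to 0.163). Zfp36l2 went from 215.4 and 188.7 TPM to 135.0 and 137.1 TPM, without overlap (48.8% of all tested genes lay wholly lower here), but its log2 change of -0.56 did not pass (adjusted p = 0.0814). It passed with the replicate block (adjusted p = 0.0306), with only the groups compared (0.0309) and without the first (0.0202) or second (0.0197) NC sample. Zc3h12c, Elavl1, Cyld and Zfp36l1 had log2 changes of 0.72, 0.33, 0.17 and 0.12 that did not pass (adjusted p 0.18, 0.11, 0.727 and 0.78 by limma). Zc3h12c passed after centring (adjusted p = 0.0488), under quantile normalization (0.042) and without the first (0.0417) or second (0.0404) NC sample, and so did Elavl1 (0.0175, 0.021, 0.0343 and 0.0343).

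Against NC, the C498+LPS samples were higher for 7 of the 9 members at an adjusted p of at most 0.05 (15.6% of all tested genes), and 4 were upregulated DEGs (9.15% of all tested genes): Zfp36 (log2 change 2.80), Zc3h12a (2.60), Zc3h12c (1.62) and Tnip1 (1.5). Of the other 3 that passed, Zfp36l1 and Tnip3 lost the pass under 4 of 17 alternatives each and Elavl1 under 1, as did the DEG Zc3h12c under 2, and Zfp36l2, which did not pass (log2 change 0.46, adjusted p = 0.0854), did so with the replicate block (0.0315) and under 3 other alternatives. The log2 change of Zfp36l1 passed 2-fold after centring (1.02), under quantile normalization (1.04), and without the first NC sample (1.19) or the first C498+LPS sample (1.20). The call of Zc3h12c was lost when only the NC and C498+LPS samples were fitted (adjusted p = 0.0525) and without the first C498+LPS sample (0.0546). Tests of the difference between the LPS responses with and without C498, the interaction, called 0 of the 9 members by limma, against 0.468% of all tested genes. At an unadjusted p under 0.05 the interaction held 5 members, against 11.1% of all tested genes: Tnip1 (difference of log2 changes -0.57, adjusted p = 0.234), Zc3h12a (-0.56, 0.287), Zfp36 (-0.45, 0.337), Zfp36l1 (0.99, 0.381) and Zc3h12c (-1.21, 0.407).

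The order of the levels changed with treatment, compared as TPM, which is scaled for transcript length. In NC, Zfp36l2 (100.6 ± 27.3 TPM) and Tnip1 (75.7 ± 4.00) came before Elavl1 (33.5 ± 4.72) and Zfp36 (33.2 ± 2.96), and Elavl1 and Zfp36 differed by less than either SD. Zfp36l2 and Tnip1 differed by less than the SD of Zfp36l2 but by more than that of Tnip1, and their samples did not overlap. In LPS, Tnip1 (306.8 ± 22.7) and Zc3h12a (169.0 ± 1.82) came first, and in C498, Zfp36l2 (202.0 ± 18.9) and Zfp36 (170.3 ± 11.4). In C498+LPS, Zfp36 (236.4 ± 3.11) and Tnip1 (216.4 ± 24.0) led, with a difference smaller than the SD of Tnip1, followed by Zc3h12a (161.8 ± 20.3) and Zfp36l2 (136.0 ± 1.49). Cyld, Zfp36l1 and Zc3h12c were the lowest 3 of the 9 in every group.

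The balance between destabilizing and stabilizing AU-rich binders, taken as the ratio of the family sum to Elavl1, was 4.51 and 3.97 in NC, 2.95 and 2.46 in LPS, 10.03 and 9.17 in C498 and 7.71 and 7.60 in C498+LPS. The 4 groups did not overlap, and this is a ratio of transcript levels, not of protein activity. The ratio of the ZFP36 family sum to the sum of Zc3h12a and Zc3h12c was 4.12 ± 0.648 in NC, 0.62 ± 0.037 in LPS, 7.41 ± 0.395 in C498 and 2.09 ± 0.342 in C498+LPS (SD, n = 2). With 2 samples against 2, an exact permutation test of such a single ratio cannot go below p = 0.333, so none was run.

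Of the 37 listed genes of the wider decay machinery (deadenylases, decapping enzymes, and other binders and their regulators), 36 were tested. In LPS vs NC, 4 (11.1%, against 5.55% of all tested genes) were upregulated DEGs and none was downregulated: Malt1 (log2 change 3.03), which encodes the protease that cleaves Regnase, Mapkapk2 (1.95), Arid5a (1.36), whose product protects transcripts from Regnase, and the decapping enzyme gene Dcp2 (1.28). This count depended on single samples: it was 8 without the first NC sample, and without the second NC sample it was 3, with 3 downregulated. In C498 vs NC, 5 (13.9%, against 5.64%) were upregulated DEGs and none was downregulated: Malt1 (1.55), Tob2 (1.46), Btg1 (1.39), Tob1 (1.33) and Btg2 (1.03), of which the BTG and TOB proteins link RNA-binding proteins to the deadenylase complex. Of these, Btg1 kept its call under all 16 alternatives with the fold threshold, while Malt1 lost it under 10, Btg2 under 5 (centring and quantile normalization among them), Tob2 under 4 and Tob1 under 3. The count was 1 with only the groups compared and without the first C498 sample, 2 without the second C498 sample, 3 without the second NC sample and 9 without the first NC sample. In C498+LPS vs LPS, Tob1 (1.88) and Btg1 (1.16) were the DEGs, 5.56% of the list and close to the 5.39% of all tested genes. Tob1 measured 9.20 and 11.3 TPM in C498+LPS against 2.63 and 1.55 TPM in LPS, and Btg1 174.3 and 164.7 against 80.6 and 70.2 TPM. The median log2 changes of the 36 genes were 0.063, 0.28 and 0.076 in these 3 comparisons, against -0.17, 0.014 and 0.0065 for all tested genes.

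All 25 listed ubiquitin regulators of NFκB signaling were tested. In LPS vs NC, 7 (28.0%, against 5.55% of all tested genes) were upregulated DEGs, led by Tnfaip3 (log2 change 2.69), Peli1 (2.66), Nfkbia (2.07), Usp18 (1.63) and Rnf11 (1.31). Nfkbia, though on the list, encodes an inhibitor of NFκB and not a ubiquitin enzyme. These leading genes kept the call under all 16 alternatives with the fold threshold, while the DEG Usp25 lost it under 5. Tnfaip3 was the sole DEG of the list in C498 vs NC (1.83), 4.0% of the list against 5.64% of all tested genes, and without the first NC sample there were 4. In C498+LPS vs LPS no gene of the list was upregulated, and 2 (8.0%, against 2.18% of all tested genes) were downregulated DEGs: Ikbkg (-1.14), the gene of the ubiquitin-binding subunit of the IκB kinase, and Usp18 (-1.02). Usp18 lost the call under quantile normalization (-0.89) and without the second LPS sample (-0.97), and Ikbkg without the first LPS sample (adjusted p = 0.0868) and without the second C498+LPS sample (0.0883). Tnfaip3 measured 240.6 and 220.7 TPM in C498+LPS against 198.7 and 164.4 TPM in LPS, and this difference did not pass (log2 change 0.35, adjusted p = 0.244 by limma), while its partner Tnip1 was lower. The median log2 changes of the list were 0.38, 0.24 and -0.0013 in LPS vs NC, C498 vs NC and C498+LPS vs LPS, against -0.17, 0.014 and 0.0065 for all tested genes.

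Among the 19 listed target transcripts of the ZFP36 and Regnase proteins, 18 were tested. In LPS vs NC, 17 (94.4%, against 5.55% of all tested genes) were upregulated DEGs, led by Il6 (log2 change 7.77), Ptgs2 (6.64), Il1b (6.47), Cxcl2 (6.22) and Cxcl1 (5.63). The list holds many cytokine genes and was chosen with earlier results of these data known, so its shares describe it and are not a test. Csf2, near the floor at 0.66 and 0.11 TPM in NC and 2.58 and 3.32 in LPS, lost its call under 6 of the 16 alternatives with the fold threshold. In C498 vs NC, 12 (66.7%, against 5.64%) were upregulated DEGs, led by Cxcl2 (4.28), Ptgs2 (4.04), Cxcl1 (3.20), Lif (2.92) and Ccl3 (2.62). In C498+LPS vs LPS, where the 3 ZFP36 family genes were higher, 3 targets (16.7%, against 5.39% of all tested genes) were upregulated DEGs, Lif (1.79), Ier3 (1.56) and Il10 (1.16), and 1 was downregulated (5.56%, against 2.18%), Cxcl3 (-1.42). Il10 lost its call under 11 of the 16 alternatives with the fold threshold, centring and quantile normalization among them (adjusted p = 0.0612 and 0.062), and the other 3 lost theirs under none. Il10 was near the floor, at 2.66 and 3.89 TPM in C498+LPS against 0.66 and 1.16 TPM in LPS. Its group mean reached 1 TPM in C498+LPS alone, so it was tested through the group in which it was called. The median log2 changes of the 18 were 4.82, 1.73 and 0.24 in these 3 comparisons, against -0.17, 0.014 and 0.0065 for all tested genes. Tnf measured 50.9 and 49.9 TPM in NC, 2157 and 2190 in LPS, 115.6 and 106.8 in C498 and 1588 and 1347 in C498+LPS, so that it fell by less than 2-fold in C498+LPS vs LPS (log2 change -0.57, adjusted p = 0.00961 by limma). The ratio of Tnf to Zfp36 was 1.52 ± 0.114 in NC, 34.1 ± 2.60 in LPS, 0.653 ± 0.0069 in C498 and 6.21 ± 0.802 in C498+LPS (SD, n = 2). Transcript levels do not separate synthesis from decay, and no half-life was measured.

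**Figure D4:**
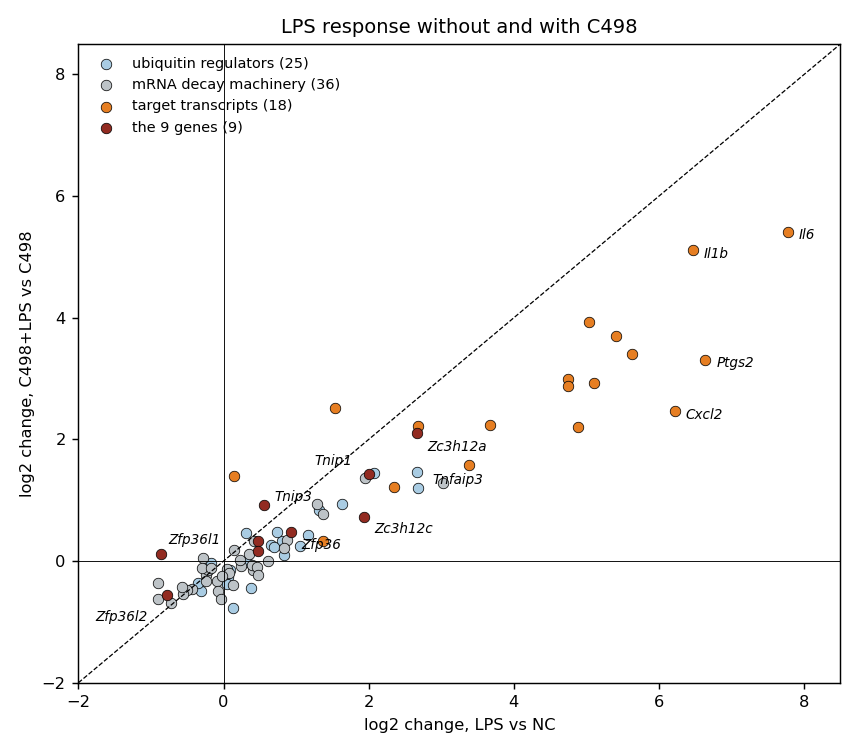
Log2 change of each of the 9 genes and each tested gene of the lists with LPS alone (LPS vs NC, horizontal axis) and with LPS after C498 (C498+LPS vs C498, vertical axis). The dashed line marks equal change, and colours separate the 9 genes, 36 decay machinery genes, 25 ubiquitin regulators and 18 target transcripts. Target transcripts such as Il6, Ptgs2 and Cxcl2 lie below the line, Zc3h12a and Tnip1 lie closer to it, and Zfp36l1, Tnip3 and Zfp36l2 lie above it. None of the 9 genes passed the interaction test.

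The 9 genes lie on 8 chromosomes in GENCODE M21 (GRCm38): Zfp36 at chr7:28376784-28380253, Zfp36l1 at chr12:80107754-80113013, Zfp36l2 at chr17:84183931-84187947, Zc3h12a at chr4:125118423-125127840, Zc3h12c at chr9:52111344-52168572, Elavl1 at chr8:4285382-4325413, Tnip1 at chr11:54910785-54962917, Tnip3 at chr6:65525313-65634040 and Cyld at chr8:88697028-88751945. Genes on the opposite strand overlap all but Zc3h12a and Tnip3, and whether strand was used in counting is not given in the sources used here. Of those overlapping genes found in the table, the highest level in any sample was 6.83 TPM, for Ccl25, which overlaps Elavl1.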

How the data were processed

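RNA of 8 mouse peritoneal macrophage samples was sequenced (Illumina NovaSeq). Per the labels and methods, the authors used fastp for read filtering, HISAT2 for alignment, StringTie for assembly and RSEM for quantification. What they deposited is a table of TPM per gene for each sample, beside group means, gene length and annotation, which were not used as measurements apart from the length. The genome build is not given in the sources used here. Coordinates are from GENCODE M21 (GRCm38), which holds 97.4% of the tested identifiers. TPM hold no read totals, so depth and counting error are not known.

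Values were transformed as log2(TPM + 1), fold changes are on that scale, and the 12189 genes with a mean of at least 1 TPM were tested with limma 3.58.1 (R 4.3.3): 1 mean per group, all samples, moderated variance with a trend. Adjusted p are by Benjamini-Hochberg within a comparison. On simulated data for LPS vs NC with 12189 genes, 50 of 66 genes changed by a log2 of 1.5, 58 of 67 changed by 2 and 64 of 67 changed by 3 were called. The members and lists were chosen with earlier results of these data known. Named list genes are DEGs in LPS vs NC, C498 vs NC or C498+LPS vs LPS, up to the 5 largest per direction, with Tnfaip3 and Tnf always named. Further list genes are named where a call was lost or the interaction passed. For each member whose group means span at least 1 log2 unit, the 3 genes most like it by Pearson r are named. Alternatives were another pseudocount, filter, scaling, variance model or fold threshold, the replicate number as a factor, and leaving out each sample in turn. Figures used matplotlib 3.10.9.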

Additional observations from a re-analysis of the deposited data

Results flagged for a closer look

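None of the 9 genes met a rule for a closer look. Among the 18 tested target transcripts, the LPS response differed with and without C498 for 11 (61.1%, all downward, against 0.394% of all tested genes downward) by the interaction test (limma, Benjamini-Hochberg over all tested genes), each smaller with C498. Over 15 alternatives the count ranged from 4 to 14. It was 4 without the first or the second LPS sample, 6 without any 1 sample of C498 or C498+LPS, 7 without the second NC sample, 6 with no filter on low values and 5 without a variance trend. Cxcl1, Cxcl2, Ccl3 and Ccl4 kept the call under all 15. The difference of log2 changes, with C498 minus without, was -3.76 for Cxcl2, -3.34 for Ptgs2, -2.68 for Ccl3, -2.36 for Il6, -2.22 for Cxcl1 and -2.18 for Ccl4. It was -1.81 for Csf3, -1.76 for Cxcl3, -1.70 for Tnf, -1.36 for Il1b and -1.05 for Ier3, and the adjusted p ranged from 0.0031 (Cxcl2) to 0.043 (Ier3). For all 11 the C498 samples lay above the NC samples, as for 29.3% of all tested genes, for example Cxcl2 at 754.9 and 645.6 TPM in C498 against 41.5 and 29.5 TPM in NC. The interaction is computed from these C498 and NC values too, so high C498 samples helped to select the 11. The share of all tested genes is therefore no fair background for them, and the list was chosen with earlier results of these data known. In C498+LPS vs LPS, Cxcl2 measured 4235 and 3503 TPM against 2678 and 2680 TPM, and Tnf 1588 and 1347 TPM against 2157 and 2190 TPM.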

How the results depend on the processing

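The number of DEGs among the 9 genes stayed within 1.5 times its reported value in 91 of 101 recalculations. Without a fold threshold it was 8 in LPS vs NC, 4 in C498+LPS vs C498 and 7 in C498+LPS vs NC. In C498 vs NC it was 1 after centring on the median gene and 1 when only the groups compared were fitted. Leaving out a sample gave 3 to 5 in LPS vs NC and 1 to 4 in C498 vs NC. The interaction uses all 4 groups, so it had no separate fit on only the groups compared. With the replicate number as a factor (replicate block), the counts were as without the block: 3 in LPS vs NC, also 3 in C498+LPS vs LPS, 2 in C498 vs NC, also 2 in C498+LPS vs C498, 4 for C498+LPS vs NC and 0 for the interaction. By the adjusted p alone the block gained passes for Zfp36l2 in C498+LPS vs C498 (0.0306) and C498+LPS vs NC (0.0315) and for Zc3h12c in C498 vs NC (0.0312), and lost none. Deviations of same-numbered samples correlated at 0.0397 to 0.168 between groups, and with 2 numbers this does not establish pairing.

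Of 909 recalculated changes of single genes, 864 kept their direction and their DEG call or lack of one, 25 became DEGs, 10 lost the DEG call and 10 turned sign, none of the last called, and the cause was not tested. By the adjusted p alone, 59 of the 909 lost a pass at 0.05 and 25 gained one, and of the 864 these were 51 and 23. The changes of sign were Zfp36l1 in C498+LPS vs C498 without C498+LPS replicate 2 (-0.14), Zc3h12a in C498+LPS vs LPS under quantile normalization (0.066) and without C498+LPS replicate 2 (0.06), Tnip1 in C498 vs NC after centring (-0.061), and Cyld in C498 vs NC under quantile normalization (-0.0045), without NC replicate 2 (-0.28) and without C498 replicate 1 (-0.0053). The others were Cyld in C498+LPS vs NC without NC replicate 2 (-0.11), Zfp36l2 in the interaction without NC replicate 1 (-0.066) and Cyld in the interaction without NC replicate 2 (0.098). Leaving out samples in turn reached, at the other end of the range, 0.39 for this change of Zfp36l1, -0.20 for Zc3h12a, 0.54, 0.71 and -0.73 for Cyld in C498 vs NC, C498+LPS vs NC and the interaction, and 0.49 for Zfp36l2. Over all genes, centring changed the upregulated and downregulated DEGs from 677 and 814 to 853 and 530 in LPS vs NC, from 307 and 381 to 434 and 196 in C498+LPS vs C498, and from 687 and 166 to 565 and 269 in C498 vs NC.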
